A study of Mus musculus with 12 samples.

Results

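The genes described here are the 10 mouse genes that encode the bifunctional enzymes of fructose 2,6-bisphosphate (Pfkfb1, Pfkfb2, Pfkfb3 and Pfkfb4), the pyruvate dehydrogenase kinases (Pdk1, Pdk2, Pdk3 and Pdk4) and the pyruvate dehydrogenase phosphatases (Pdp1 and Pdp2). They were chosen by family, as the genes whose RefSeq accession was carried by a probe of the array. The rule used no measured value, but earlier results of these data were known when it was made. In all, 15 of the 39429 probes belonged to them. Of the 10 genes, 9 were among the 16915 genes that could be tested, and Pdk3 was not.

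Liver RNA of 12 male C57BL/6 mice was measured at 30 weeks of age, 1 mouse per single-color array. The LKO mice (n = 6) carried floxed Phgdh alleles together with Cre under the albumin promoter (Alb +/Cre;Phgdh flox/flox), so that Phgdh, the enzyme that opens serine synthesis from a glycolytic intermediate, is deleted in cells with an active albumin promoter, the hepatocytes. The Floxed littermates (n = 6) carried the same floxed alleles (Phgdh flox/flox) without Cre, and all mice ate a chow with 20% casein. Because whole liver was used, fewer cells of a type and less RNA per cell cannot be told apart. Each array is a separate mouse, and the values are the authors' processed spot intensities after log2 transformation and quantile normalization.

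Fructose 2,6-bisphosphate is the strongest known activator of phosphofructokinase and an inhibitor of fructose 1,6-bisphosphatase, and it therefore sets the direction of flux between glycolysis and gluconeogenesis in hepatocytes. Each Pfkfb enzyme has a kinase that makes this molecule and a phosphatase that removes it, and the isoforms differ in the balance of both activities. Further down the pathway, the Pdk enzymes phosphorylate and thereby switch off the pyruvate dehydrogenase complex, which turns pyruvate into acetyl-CoA, and the Pdp enzymes remove these phosphates and switch it on again. Pdk4 is known as a gene that rises with fasting and falls with insulin.

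The arrays lay on 3 slides, with Floxed mice 1 to 4 on slide 1, Floxed mice 5 and 6 and LKO mice 1 and 2 on slide 2, and LKO mice 3 to 6 on slide 3. Slide and genotype can therefore be separated on slide 2 alone. All 12 hepatocyte markers of a fixed list were well above background on every array. Phgdh itself had a log2 intensity of 4.81 to 5.50 in Floxed mice and of 4.23 to 4.66 in LKO mice 3 to 6. The arrays labeled LKO 1 and LKO 2, at 5.07 and 5.30, lay inside the Floxed range, and the main results are given below with and without them. Without these arrays, or without slide 2, no slide holds both genotypes, so slide and genotype cannot be told apart. Whether the Phgdh probe reads the deleted exons is not known from the sources used here.

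Of the 9 tested genes, Pfkfb3 was lower and Pdk4 was higher in LKO mice, and the other 7 genes did not pass the test. As in the methods of the study, a gene was called where limma gave p below 0.05 before adjustment. This called 8.35% of all tested genes, 3.43% as lower and 4.92% as higher in LKO mice. None of the members, and none of the other genes, was called once p-values were adjusted by Benjamini-Hochberg over all tested genes, and the smallest adjusted limma p was 0.132. Both called members changed by more than 1 on the log2 scale, which 0.538% of all tested genes did. By their limma p, Pdk4 ranked 106 and Pfkfb3 ranked 199 among the 16915 genes. In no member did the LKO values lie wholly outside the Floxed values, which was the case for 0.296% of the tested genes.

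**Figure D1:**
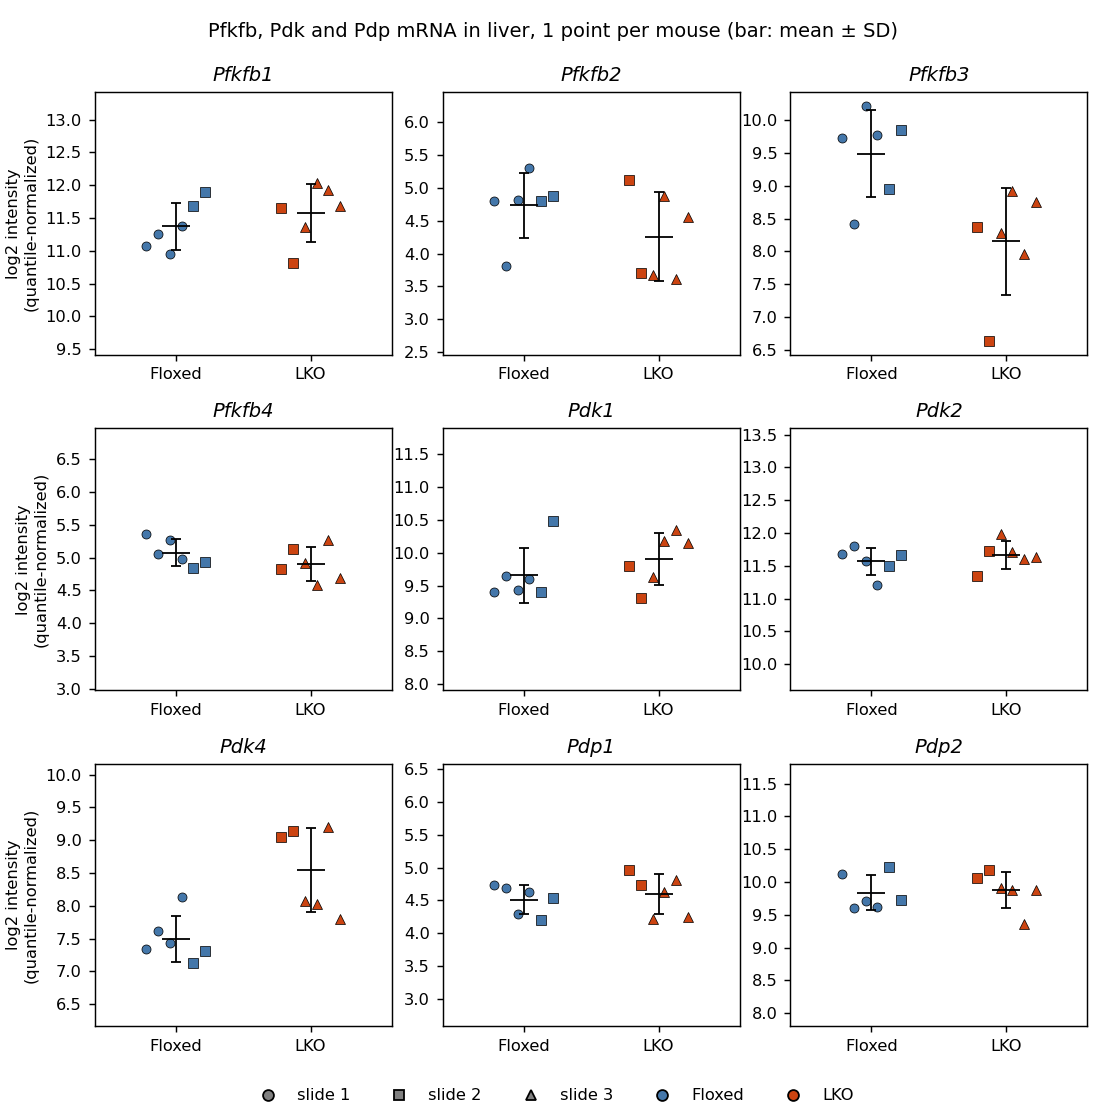
Log2 intensity (y axis, the same span of 4 in every panel) of the 9 tested genes in Floxed and LKO mice (x axis). Each point is 1 mouse, the marker gives its slide and the bars are mean ± SD of 6 mice. Pfkfb3 fell and Pdk4 rose, while the other genes overlapped widely.

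Pfkfb3 encodes the isoform with the highest ratio of kinase to phosphatase activity and is known for driving glycolysis in dividing cells and under hypoxia. Its log2 intensity in Floxed mice had a lowest value of 8.42, a median of 9.75 and a highest value of 10.22, and in LKO mice a lowest value of 6.64, a median of 8.32 and a highest value of 8.93. Floxed mouse 2, at 8.42, was the only Floxed mouse below the highest LKO value, and 4 LKO mice lay below it. The means were 9.49 ± 0.67 (SD, n = 6) and 8.15 ± 0.82 (SD, n = 6), which is a change of -1.34 on the log2 scale (standard error 0.38, 95% interval -2.16 to -0.51), or a fold of 0.396. The limma p was 0.00399, or 0.333 after adjustment. When the genotypes were permuted over the mice in all 924 ways, the two-sided exact p was 0.00866.

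The LKO mean of Pfkfb3 was the lower one both within slide 2 and between slides 1 and 3. On slide 2 the Floxed mean was 9.40 and the LKO mean 7.50, a difference of -1.90. Slide 1 had a Floxed mean of 9.53 and slide 3 an LKO mean of 8.48. LKO mouse 2 was the lowest of all, and without it the log2 fold change was -1.03. Without LKO mice 1 and 2 the log2 fold change was -1.01, with a limma p of 0.0111, but no slide then holds both genotypes.

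A further Pfkfb3 probe, designed on another RefSeq transcript of the gene (NM_133232, against NM_001177753 for the tested probe), was well above background on 5 of the 6 Floxed arrays and on 1 of the 6 LKO arrays, and so was not tested. Floxed mice had log2 intensities of 3.36 to 4.80 with a mean of 4.12 ± 0.58 (SD, n = 6), and LKO mice of 1.78 to 3.37 with a mean of 2.68 ± 0.57 (SD, n = 6). As 5 of the LKO values were not well above background, no fold change is read from this probe. In the deviations of the 12 mice from the mean of their genotype, the probes had r = 0.91 (permutation p = 7e-05) and rho = 0.89 (permutation p = 0.00022). This was 1 of 13 relations computed, and r had an adjusted p of 0.00091 and rho one of 0.0029. Without Floxed mouse 2 and LKO mouse 2, which lay farthest out, r was 0.83. It was 0.94 within Floxed mice, where 5 of the 6 arrays were above background, while the value of 0.89 within LKO mice rests on arrays of which 1 was.

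Pdk4, the inhibitory kinase that limits the entry of pyruvate into the citric acid cycle during fasting, showed the opposite change. Its log2 intensity had a lowest value of 7.13, a median of 7.39 and a highest value of 8.13 in Floxed mice, and a lowest value of 7.80, a median of 8.56 and a highest value of 9.20 in LKO mice. Floxed mouse 4, at 8.13, was the only Floxed mouse inside the LKO range. The means were 7.49 ± 0.35 (SD, n = 6) and 8.55 ± 0.65 (SD, n = 6), which is a change of 1.05 on the log2 scale (standard error 0.27, 95% interval 0.47 to 1.63), or a fold of 2.08. The limma p was 0.00176, or 0.280 after adjustment, and the exact permutation p was 0.00866.

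The LKO mice spread more widely in Pdk4 than the Floxed mice. LKO mice 1, 2 and 5 had log2 intensities of 9.04, 9.14 and 9.20, and LKO mice 3, 4 and 6 had 8.08, 8.02 and 7.80. On slide 2 the Floxed mean was 7.22 and the LKO mean 9.09, a difference of 1.87. Slide 1 had a Floxed mean of 7.63 and slide 3 an LKO mean of 8.27. Between these the difference was 0.64 (standard error 0.30), which just missed the threshold for a call before adjustment. It did not pass after adjustment either (limma, adjusted p = 0.475). Without slide 2 Pdk4 thus kept its sign at a smaller size. Fewer mice were compared there, and whether the change rested on slide 2 was not tested. Without LKO mice 1 and 2, the Floxed mice of slide 2 being kept, the log2 fold change was 0.78 with a limma p of 0.0139. Here too no slide holds both genotypes.

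**Figure D2:**
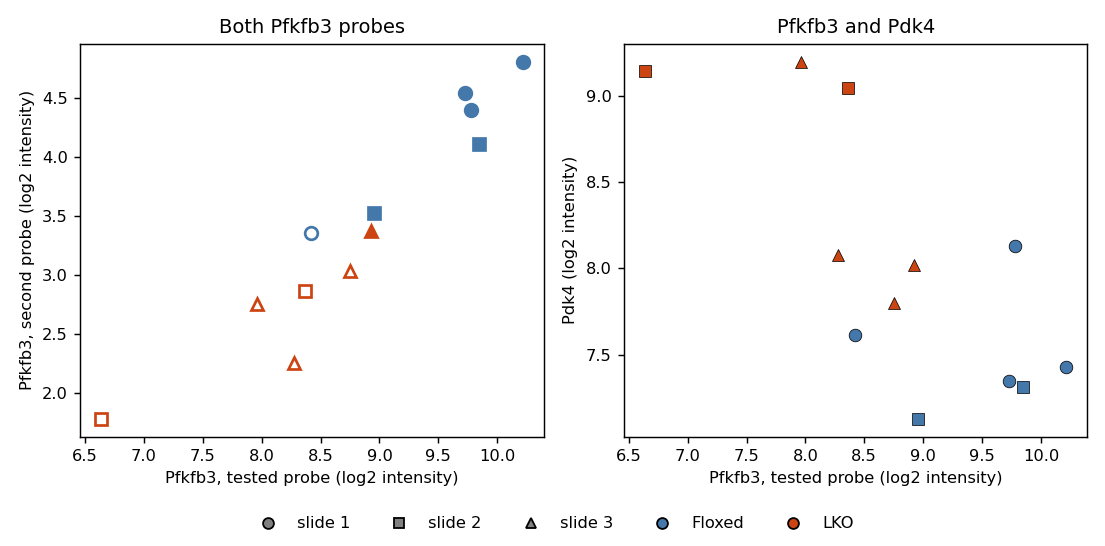
Left, log2 intensity of the tested Pfkfb3 probe (x axis) and of the other Pfkfb3 probe (y axis), where open symbols mark arrays on which the other probe was not well above background. Right, log2 intensity of Pfkfb3 (x axis) and of Pdk4 (y axis). Each point is 1 mouse, colored by genotype and shaped by slide. The deviations of both Pfkfb3 probes from the genotype means had r = 0.91, with 6 of the 12 arrays above background for the other probe, and the mice with the highest Pdk4 are LKO mice 1, 2 and 5.

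The 3 LKO mice with the highest Pdk4 included LKO mice 2 and 5, which had the lowest Pfkfb3 values, 6.64 and 7.96. Over the deviations of the 12 mice from the mean of their genotype, Pfkfb3 and Pdk4 had r = -0.45 (permutation p = 0.149, adjusted p = 0.323 over the 13 relations) and rho = -0.46 (permutation p = 0.135, adjusted p = 0.351). The value of r was -0.29 without Floxed mouse 2 and LKO mouse 2, 0.09 within Floxed mice and -0.70 within LKO mice, and the relation did not hold up.

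The promoters of both called genes are shown so that the sequence upstream of each transcript start can be read beside its change. They are the 250 bases before the start in RefSeq (assembly GRCm38.p6), on the minus strand and written 5′ to 3′ in the direction of transcription. Capitals mark matches on either strand to the motifs searched, which were the FoxO motif GTAAACA, the HIF cores ACGTG and GCGTG, the E-box CACGTG (which contains ACGTG), the PPAR element AGGTCA alone or as DR1 (repeated in the same direction with 1 base between), and the GC box GGGCGG. Pfkfb3 has 2 annotated starts in this table, Pdk4 has 1.
Pdk4, chr6:5496279-5496528: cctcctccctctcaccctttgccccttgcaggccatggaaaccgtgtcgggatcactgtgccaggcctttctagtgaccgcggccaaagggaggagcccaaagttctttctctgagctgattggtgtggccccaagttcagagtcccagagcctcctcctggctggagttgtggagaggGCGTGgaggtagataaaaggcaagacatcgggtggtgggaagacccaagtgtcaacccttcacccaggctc
Pfkfb3, chr2:11553930-11554179: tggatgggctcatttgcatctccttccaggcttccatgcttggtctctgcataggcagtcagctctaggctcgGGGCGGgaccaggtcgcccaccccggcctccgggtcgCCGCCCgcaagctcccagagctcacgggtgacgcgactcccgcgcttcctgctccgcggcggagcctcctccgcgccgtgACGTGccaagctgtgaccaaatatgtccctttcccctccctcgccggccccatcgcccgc
Pfkfb3, chr2:11502091-11502340: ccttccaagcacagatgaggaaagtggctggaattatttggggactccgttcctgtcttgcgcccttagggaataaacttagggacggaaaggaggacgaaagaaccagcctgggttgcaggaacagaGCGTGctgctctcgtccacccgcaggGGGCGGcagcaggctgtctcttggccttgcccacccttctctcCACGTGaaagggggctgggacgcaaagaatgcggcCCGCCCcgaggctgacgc

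The Pdk4 window held a single HIF core and none of the other motifs. The Pfkfb3 windows held a HIF core and 2 GC boxes at the one start, and an E-box, a HIF core beside the one inside the E-box, and 2 GC boxes at the other. Of all 32851 windows of this length in the table, 38.6% held a HIF core, 6.02% an E-box, 32.7% a GC box, 14.0% a PPAR element, 0.0335% a DR1 and 3.17% the FoxO motif. Among the 17 windows of the members, 12 held a HIF core, 4 an E-box, 8 a GC box, 1 a PPAR element, and 0 a DR1 or the FoxO motif. A match of letters is a description of the window and no measure of binding.

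Among the other Pfkfb genes, Pfkfb1, the isoform named for liver and muscle and the main one of hepatocytes, had a log2 intensity of 10.95 to 11.90 (median 11.32) in Floxed mice and of 10.81 to 12.03 (median 11.67) in LKO mice. The LKO range enclosed the Floxed range. Its log2 fold change was 0.20 (standard error 0.21, 95% interval -0.25 to 0.66, exact permutation p = 0.403). On slide 2 the sign was the other way, with a difference of -0.56. Floxed mice lay 0.62 higher on slide 2 than on slide 1, and LKO mice 0.52 higher on slide 3 than on slide 2, so that Pfkfb1 differed as much between slides of 1 genotype as between genotypes. Without slide 2 its log2 fold change was 0.58 and it was called (limma, adjusted p = 0.147).

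Pfkfb2, the isoform of heart that insulin signaling activates, had a log2 intensity of 3.81 to 5.31 (median 4.81) in Floxed mice and of 3.61 to 5.12 (median 4.13) in LKO mice. LKO mice 2, 3 and 5, at 3.71, 3.67 and 3.61, lay below all Floxed mice, and the other LKO mice lay among them. The log2 fold change was -0.48 (standard error 0.30, 95% interval -1.14 to 0.18, exact permutation p = 0.173), with a difference of -0.43 on slide 2. Floxed mouse 2 stood apart from the other Floxed mice, and without it the log2 fold change was -0.66 and Pfkfb2 was called. The same held without LKO mouse 1, at -0.65. Pfkfb2 was dim, and in Floxed mouse 2 and LKO mouse 5 it lay close to the background. The lowest log2 intensity well above background was 3.75 and 3.47 on these arrays. The size of its change depended on the processing. It was -0.33 with 75th percentile scaling and -0.13 with normexp background correction, and Pfkfb2 was called with neither.

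Pfkfb4, the testis isoform that hypoxia also induces, had a log2 intensity of 4.84 to 5.37 (median 5.02) in Floxed mice and of 4.59 to 5.28 (median 4.87) in LKO mice. Its log2 fold change was -0.17 (standard error 0.13, 95% interval -0.45 to 0.11, exact permutation p = 0.238), and the difference was 0.097 on slide 2. A further Pfkfb4 probe was well above background on 0 of the 12 arrays and gives no direction. Neither probe thus separated the genotypes.

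Among the other Pdk genes, Pdk1, a kinase induced by hypoxia, had a log2 intensity of 9.40 to 10.49 (median 9.51) in Floxed mice and of 9.32 to 10.35 (median 9.98) in LKO mice. Its log2 fold change was 0.24 (standard error 0.21, 95% interval -0.22 to 0.70, exact permutation p = 0.329), with a difference of -0.39 on slide 2. As for Pfkfb1, Floxed mice lay higher on slide 2 than on slide 1, by 0.43, and LKO mice higher on slide 3 than on slide 2, by 0.52. The Floxed value of 10.49 was that of mouse 6, and without it the log2 fold change was 0.41 and Pdk1 was called. It was called without slide 2 as well, at 0.56.

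Pdk2, the most widely expressed kinase of the family, varied least of the 3 tested kinases. It had a log2 intensity of 11.21 to 11.80 (median 11.62) in Floxed mice and of 11.34 to 11.99 (median 11.67) in LKO mice. The log2 fold change was 0.10 (standard error 0.12, 95% interval -0.16 to 0.35, exact permutation p = 0.433), so that a change of more than 0.35 on the log2 scale lay outside the interval, and the difference was -0.053 on slide 2. Pdk3, the kinase known from testis, kidney and brain, was well above background in Floxed mice 4 and 6 and in none of the LKO mice. Its measured log2 means were 2.83 ± 0.70 (SD, n = 6) in Floxed and 2.94 ± 0.27 (SD, n = 6) in LKO mice, and no fold change is given.

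Neither phosphatase was called over the 12 mice. Pdp1, the calcium-stimulated enzyme, had a log2 intensity of 4.19 to 4.73 (median 4.58) in Floxed mice and of 4.22 to 4.97 (median 4.68) in LKO mice, which is a change of 0.09 on the log2 scale (standard error 0.15, 95% interval -0.23 to 0.40, exact permutation p = 0.569) and a difference of 0.48 on slide 2, where it was called when that slide was fitted alone. Its other 2 probes were well above background on 9 and on 3 of the 12 arrays, with differences of 0.05 and -0.07. Pdp2, an isoform found in liver and fat, had a log2 intensity of 9.61 to 10.24 (median 9.72) in Floxed mice and of 9.37 to 10.18 (median 9.89) in LKO mice. Its log2 fold change was 0.04 (standard error 0.15, 95% interval -0.28 to 0.36, exact permutation p = 0.820) and 0.14 on slide 2, and a dimmer Pdp2 probe above background on all 12 arrays had a difference of -0.13.

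**Figure D3:**
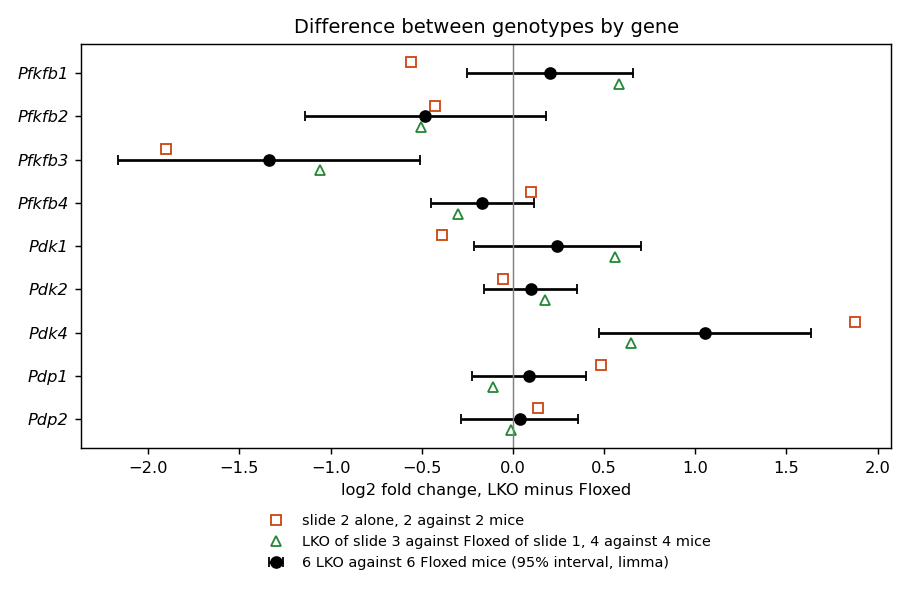
Log2 fold change of LKO against Floxed mice (x axis) for the 9 tested genes (y axis). Black points are all 12 mice with the 95% interval from limma, open squares are slide 2 alone and open triangles compare LKO mice of slide 3 with Floxed mice of slide 1. Pfkfb2, Pfkfb3 and Pdk4 keep 1 sign in both, and the other 6 genes have opposite signs in the squares and triangles.

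The paralogs were then compared within their families, by asking whether the difference between 2 genes on the same array differed between the genotypes. This compares changes and not levels, since probes differ in how strongly they bind. Of 10 pairs, 1 passed an exact permutation test (two-sided, 924 arrangements) after Benjamini-Hochberg adjustment over the 10 pairs, and 4 passed before it.

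The pair that passed was Pfkfb1 and Pfkfb3. Floxed mice had differences of 0.73 to 2.85 on the log2 scale between these genes and LKO mice of 2.93 to 4.17, so that all LKO mice lay above all Floxed mice. The change of Pfkfb1 exceeded that of Pfkfb3 by 1.54 (95% interval 0.66 to 2.42, exact permutation p = 0.00216, the smallest that the design allows, adjusted p = 0.0216). On slide 2 the excess was 1.34. Without slide 2 it was 1.64, with the smallest exact permutation p that the remaining mice allow (0.0286, adjusted p = 0.143). Without LKO mice 1 and 2 it was 1.39 (exact permutation, adjusted p = 0.143). When any 1 of the LKO mice was left out, the adjusted p lay between 0.0541 and 0.0866 (exact permutation tests). It was 0.0216 without any 1 of the Floxed mice (exact permutation tests). All remaining LKO mice still lay above all Floxed mice in each case. The excess lay between 1.31 and 1.73 with any 1 mouse left out, so the adjusted p moved without overlap of the genotypes. With slide as a fixed block, tested with limma, the excess was 1.34 and the pair did not pass (adjusted p = 0.0825). The other slides hold 1 genotype each, so the differences in this fit are those of slide 2.

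For Pfkfb2 and Pfkfb3 the changes differed by 0.86 (95% interval 0.14 to 1.58, exact permutation p = 0.0238, adjusted p = 0.108), and for Pfkfb3 and Pfkfb4 by -1.17 (95% interval -2.26 to -0.08, exact permutation p = 0.0346, adjusted p = 0.108). With slide as a fixed block these calls changed places, and the pairs of Pfkfb3 with Pfkfb2 (1.47, limma, adjusted p = 0.00443) and with Pfkfb4 (-1.997, limma, adjusted p = 0.0434) passed. With slide as a random block, also tested with limma, Pfkfb3 passed against Pfkfb1 (adjusted p = 0.00407), Pfkfb2 (0.0353) and Pfkfb4 (0.0353). Over all genes, the correlation between arrays of the same slide was estimated as slightly negative, at -0.066. Which paralogs Pfkfb3 differed from after adjustment therefore depended on the model. Both the test and the slide term changed between the main comparison and these fits. A run with limma and no slide term is given with the alternatives at the end. The remaining Pfkfb pairs had differences of 0.68 (Pfkfb1 and Pfkfb2), 0.37 (Pfkfb1 and Pfkfb4) and -0.31 (Pfkfb2 and Pfkfb4), with adjusted p from exact permutation tests of 0.134 to 0.574.

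In the Pdk family, the change of Pdk2 minus that of Pdk4 was -0.96 (95% interval -1.79 to -0.13, exact permutation p = 0.0433, adjusted p = 0.108). On slide 2 it was -1.93 and without slide 2 it was -0.47. The change of Pdk1 minus that of Pdk4 was -0.81 (95% interval -1.72 to 0.10, exact permutation p = 0.0823, adjusted p = 0.137), and that of Pdk1 minus Pdk2 was 0.15 (95% interval -0.44 to 0.73). Neither Pdk4 pair thus passed the adjustment over all 12 mice. With slide as a fixed block, where the difference is that of slide 2 alone, both passed. Pdk1 and Pdk4 were at -2.26 (limma, adjusted p = 0.00167) and Pdk2 and Pdk4 at -1.93 (limma, adjusted p = 0.00737). Without slide 2, Pdk1 and Pdk4 were at -0.086. The pair Pdk2 and Pdk4 also passed with slide as a random block (limma, adjusted p = 0.0353) and without Floxed mouse 4 (exact permutation, adjusted p = 0.0433). Pdp1 and Pdp2 differed by 0.05 (95% interval -0.48 to 0.58).

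**Figure D4:**
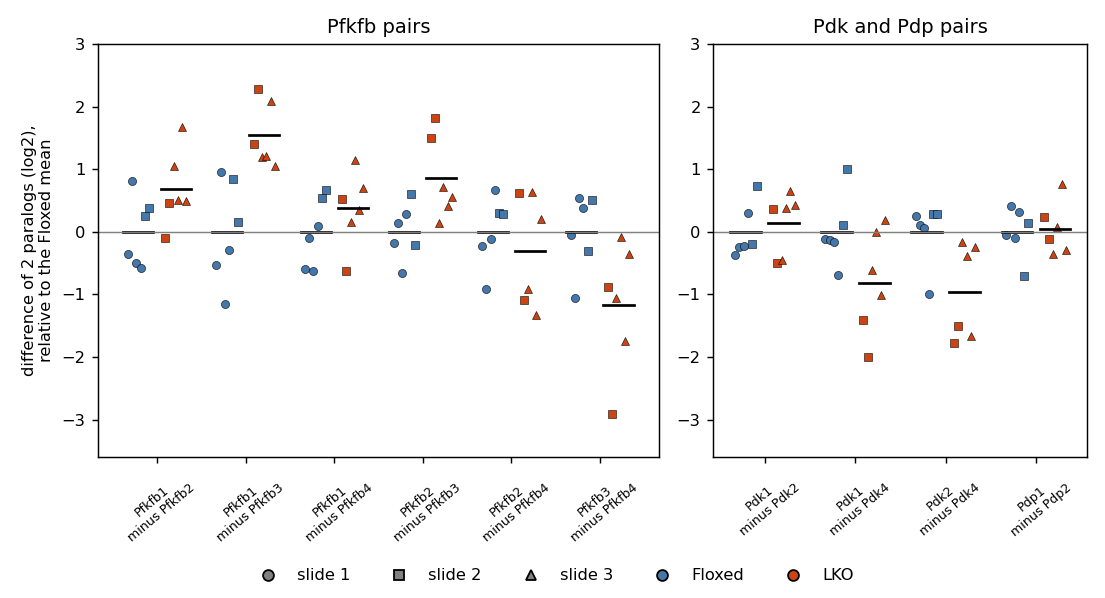
Difference of log2 intensity between 2 paralogs in each mouse (y axis), shifted so that the Floxed mean of each pair is 0, for the 6 Pfkfb pairs and the 4 Pdk and Pdp pairs (x axis). Each point is 1 mouse, shaped by slide, and black lines are group means. The Floxed and LKO mice are separate for Pfkfb1 minus Pfkfb3 and overlap for all other pairs.

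Paralogs were also compared in how they varied among mice of 1 genotype. The pair with the highest r was Pfkfb2 and Pfkfb3, with r = 0.67 (permutation p = 0.0156, adjusted p = 0.101) and rho = 0.70 (permutation p = 0.0131, adjusted p = 0.0854) over the deviations of 12 mice, and r = 0.62 without Floxed mouse 2 and LKO mouse 1. No pair of paralogs passed the adjustment. Some had high values in 1 genotype alone, which were not tested. Pfkfb1 and Pfkfb4 had r = -0.86 within Floxed and -0.37 within LKO mice, and Pfkfb1 and Pfkfb3 r = -0.20 and 0.83. Pfkfb4 ran against Pfkfb2 (r = -0.79) and Pfkfb3 (r = -0.75) within LKO mice, beside -0.09 and 0.40 within Floxed mice. The genes most like each member in these deviations differed from member to member and are given as a description over 12 mice. For Pfkfb3 they were Alas1 (r = 0.895), the rate-limiting enzyme of heme synthesis, Tspan8 and Dnajb1. For Pdk4 they were Zc4h2 (r = 0.893), Slc10a7 and Zfp386. For Pdk1 they were Tlcd1 (r = 0.954), Taldo1, an enzyme of the pentose phosphate pathway, and Me1, malic enzyme, and for Pfkfb1 Nrg4 (r = 0.924), Usp8 and Nadk, which makes NADP. For Pfkfb2 the closest was Tapt1 (r = 0.966), for Pfkfb4 Fbxo44 (r = 0.949), for Pdk2 Armc5 (r = 0.964), for Pdp1 Rhox4g (r = 0.905) and for Pdp2 Cbfa2t2 (r = 0.924).

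The enzymes that the switch acts upon were measured on the same arrays. Of 25 genes of glycolytic enzymes, 22 were tested, 1 was called higher and 0 lower, with a median log2 fold change of 0.03 beside -0.0035 over all tested genes. The called gene was Eno3, the muscle-type enolase, which changed by 0.25 on the log2 scale (standard error 0.07) and of 0.11 on slide 2. Of 8 gluconeogenic genes, 6 were tested and 0 were called, with a median of -0.02. Of 12 genes of the pyruvate dehydrogenase complex, the mitochondrial pyruvate carriers and relatives of the switch enzymes, 10 were tested and 0 were called, and 9 of these 10 had a positive sign with a median of 0.09. Over these 3 lists of enzymes around the switch, Eno3 was thus the only call.

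Among 21 genes known to act on the switch genes, such as Foxo1, Ppara and the insulin receptor, 0 were called higher and 1 lower. This was Insr, the insulin receptor, which changed by -0.25 on the log2 scale (standard error 0.09, limma, adjusted p = 0.478) and of -0.29 on slide 2. Of 20 fasting genes, a list of Ppara and FoxO targets, all 20 were tested and 0 were called, with a median of 0.14 and a median of -0.03 on slide 2. Of 14 feeding genes, targets of insulin and carbohydrate, 13 were tested and 0 were called. All 13 had a positive sign over the 12 mice, with a median of 0.22, but the median on slide 2 was -0.44. No gene of the fasting or the feeding list was therefore called beside Pdk4.

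Of 18 hypoxia targets, 16 were tested, 1 was called higher and 1 lower, with a median of 0.0013. Ddit4, an inhibitor of mTORC1 signaling, changed by 0.53 on the log2 scale (standard error 0.21), and Vegfa, the endothelial growth factor, by -0.42 (standard error 0.10).

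Of 18 clock genes, 13 were tested and 2 were called, Per1 and Hlf, both lower. Per1, a repressor of the circadian clock, had log2 intensities of 9.77 to 10.69 in Floxed mice and 8.04 to 9.79 in LKO mice. It changed by -1.15 on the log2 scale (standard error 0.27, limma, adjusted p = 0.257) and of -1.51 on slide 2. LKO mice 2 and 5, with the lowest Pfkfb3 values, also had the lowest Per1 values, 8.04 and 8.71. Dbp, a clock output gene picked after its values were seen, was 9.45 in LKO mouse 2 and lay between 11.46 and 14.35 in the other 11 mice. The median of the 13 clock genes on slide 2 was -0.43, beside 0.02 over all tested genes. The time of day at which each liver was taken was not in the sources used here, and its part in the Pfkfb3 and Pdk4 results was not tested.

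Summed markers of other cells overlapped between the genotypes. The summed linear intensity of 7 macrophage markers, all above background on every array, was 21860 to 47440 in Floxed and 18460 to 40430 in LKO mice, that of 8 stellate cell markers from 15400 to 19080 and from 14000 to 21540, and that of 6 markers of sinusoidal endothelium from 15410 to 18120 and from 15210 to 23210. For 7 adipocyte markers, of which 3 were above background on all arrays and Lep on none, the sums ranged from 1716 to 5766 and from 1198 to 6774. The sum of 5 cholangiocyte markers, 2 of them above background on all arrays, had the largest shift of these lists, a log2 ratio of -0.71, with 427.1 to 1358 in Floxed and 386.9 to 1319 in LKO mice. Such sums mostly follow the brightest marker. Here that was Cftr (mean log2 intensity 9.64 in Floxed and 8.81 in LKO mice), while Krt19, far dimmer, changed by 0.11. Dcn (13.97 and 13.89) weighed most for stellate cells and Cd4 (14.09 and 13.86) for lymphocytes. The log2 ratio was -0.19 for lymphocytes (9993 to 38930 and 11730 to 23290), 0.14 for pancreas (1285 to 2259 and 1592 to 2372) and -0.15 for blood (14190 to 22670 and 13630 to 20150). Of 7 markers of skeletal muscle, a tissue rich in Pdk4 and Eno3, 0 were above background on all arrays, and Ckm, Actn3, Myh1, Myh4 and Mylpf were above it on none. Single markers were called for endothelium (Pecam1, higher), cholangiocytes (Cftr, lower) and pancreas (Cel, higher), and none for hepatocytes, macrophages, lymphocytes, stellate cells, adipocytes or blood. The part of other cells in the Pfkfb3 and Pdk4 results was not tested.

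Both called genes were recomputed under each alternative. Neither was called after adjustment over all genes. Before adjustment, Pfkfb3 was called in each alternative run, and Pdk4 in each but the one without slide 2. Changing the filter, keeping outlier spots or averaging the kept probes left both fold changes as they were, since the same probe was read. A fixed slide block and slide 2 alone also shared the same fold changes.

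**Figure D5:**
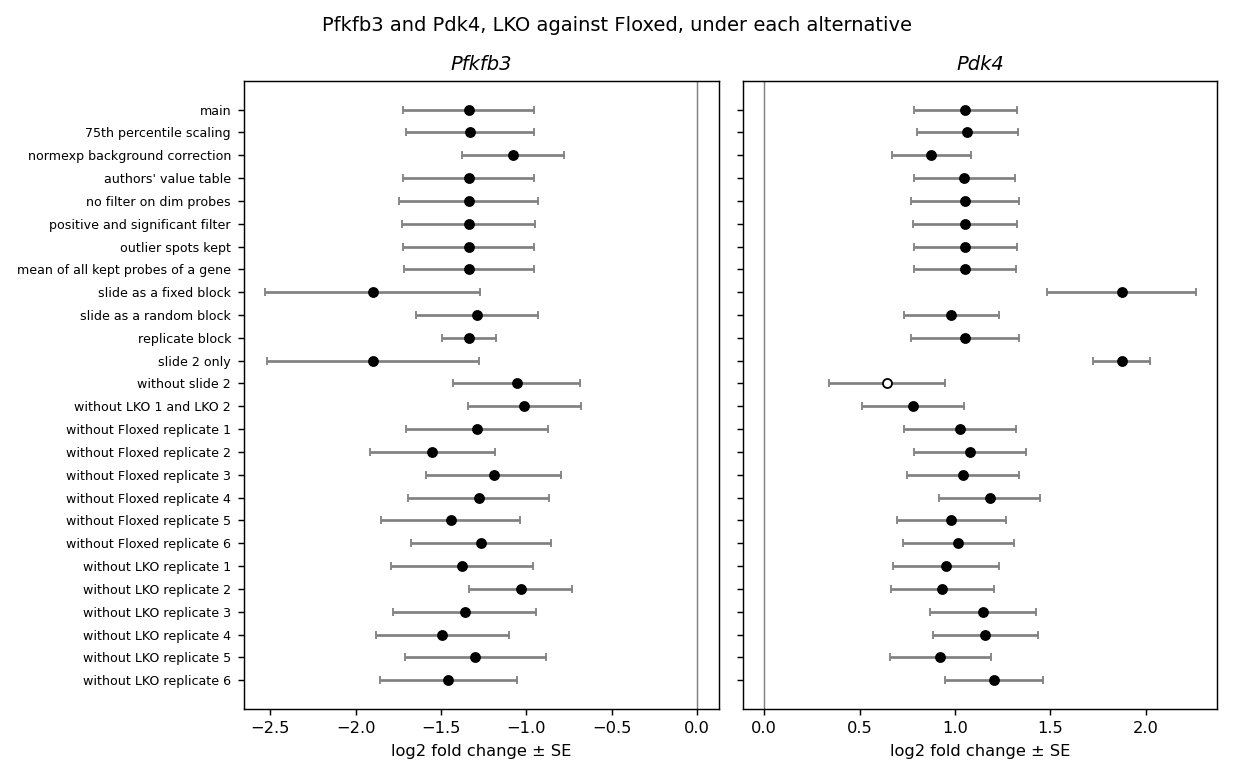
Log2 fold change ± standard error (x axis) of Pfkfb3 and Pdk4 in LKO against Floxed mice under each way of processing the arrays or choosing the mice (y axis). Filled points have an unadjusted limma p below 0.05 and open points do not. Pfkfb3 lies below 0 and is filled throughout, from -1.90 to -1.01, while Pdk4 lies above 0 and is open when slide 2 is left out, at 0.64.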

How the data were processed

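Genotypes came from the sample titles and slides from the array identifiers. The authors deposited for each array the scanner software's spot intensities (Agilent Feature Extraction, version 9.5.1.1 per the labels and 10.7.1.1 per the file headers), including a background-corrected processed intensity without normalization across arrays, and also their own quantile-normalized intensities per probe. From the deposited processed intensity, 1377 control spots per array were left out, log2 values of the 12 arrays were quantile-normalized, outlier spots (0.298%) were set missing and spots of a probe were averaged. In place of the detection p-value of the study, a mark for signal well above background on each of the 12 arrays was required, which kept 20404 probes, and the brightest probe stood for a gene. Of 28389 probes with a RefSeq accession, 94.3% were matched to the GRCm38.p6 gene table. Array design and table differ in build, so no probe coordinates are given. A gene without values in one genotype was left out.

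LKO and Floxed mice were compared with limma 3.58.1 (lmFit and eBayes, no covariate) in R 4.3.3, adjusted p-values are Benjamini-Hochberg over all tested genes, and permutation tests used Python 3.11.15 and scipy 1.17.1 (100000 resamples for correlations of 12 mice). Intervals of limma results use its moderated standard error. The fit of LKO against Floxed arrays was tested on simulated data for 16915 genes. It recovered 100% of 200 genes given a log2 change of 1.5 and called 4.95% of the others. That change is larger than those of Pfkfb3 (-1.34) and Pdk4 (1.05), and the measured arrays called 8.35% of genes. The simulation is therefore a check of the fit and gives neither the power nor the share of false calls for these genes. No spot was saturated, and 21614 to 24252 probes per array were well above background. The number of arrays limits the precision. The members, lists and tests were chosen with earlier results of these data known. All members, the called genes of each list and the 3 genes most like a member are named, with further genes marked. The alternatives tried cover normalization, background correction, the authors' table, filters, probe choice, test, slide, replicate number and arrays left out.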

Additional observations from a re-analysis of the deposited data

Results flagged for a closer look

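Of 30 groups of 6 mice, 1 per probe and genotype, 3 had a highest or lowest mouse whose gap to its neighbour, as a share of the whole range, was past Dixon's 95% critical value for 6 values, against 1.5 by chance. Pfkfb2 was lowest in Floxed mouse 2, at a log2 intensity of 3.81, against 4.80 to 5.31 in the other Floxed mice. Pdk1 was highest in Floxed mouse 6, at 10.49, against 9.40 to 9.65. The dim Pfkfb4 probe, above background on no array, was highest in Floxed mouse 1, at 2.32, against 1.25 to 1.51.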

How the results depend on the processing

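The direction of Pfkfb3 and Pdk4 was kept under all alternatives run, several of which could not change their fold changes. Neither was called after Benjamini-Hochberg adjustment over all genes. Before it, Pfkfb3 was called in each, and its log2 fold change lay between -1.55 and -1.03 with each mouse left out in turn. Pdk4 lay between 0.92 and 1.20 with each mouse left out and was called before adjustment in all alternatives but the one without slide 2, where it was 0.64. In that alternative Pdp1 was -0.11, Pdp2 -0.012 and the pair Pdp1 and Pdp2 -0.10. With slide as a fixed block or slide 2 alone, the sign turned for Pfkfb1 (-0.56), Pfkfb4 (0.10), Pdk1 (-0.39), Pdk2 (-0.053) and the pairs Pfkfb1 and Pfkfb2 (-0.13), Pfkfb1 and Pfkfb4 (-0.65) and Pdk1 and Pdk2 (-0.33). Normexp background correction gave Pdp1 -0.00059 and the Pdp pair -0.077, the mean over probes gave Pdp2 -0.047, and without LKO mice 1 and 2 Pdp1 was -0.039 and Pdp2 -0.084. With each mouse left out, Pdp2 lay between -0.024 and 0.14 and the Pdp pair between -0.094 and 0.13.

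The number of called members was 2 to 3 with each mouse left out and 0 after Benjamini-Hochberg adjustment. The number of all genes called was 1103 to 1837 with each mouse left out, 317 with slide as a fixed block, 512 on slide 2 alone, 2172 without LKO mice 1 and 2, 2791 without the filter on dim probes, 88 with a log2 fold change of at least 1 added, and 0 after adjustment. Adjusted calls over all genes numbered 9 with slide as a random block, 324 without slide 2 and 571 without LKO mice 1 and 2. In the last 2 sets no slide holds both genotypes, so slide and genotype cannot be told apart in these calls. Scaling to the 75th percentile gave 1127 higher and 316 lower genes in place of 832 and 581. Paralog pairs past the adjusted threshold numbered 1 in the text, 0 to 2 with each mouse left out, 2 with 75th percentile scaling and with normexp, 4 with slide as a fixed block (the pairs of Pfkfb3 with Pfkfb2 and Pfkfb4 and of Pdk4 with Pdk1 and Pdk2, but not Pfkfb1 and Pfkfb3), 5 with it as a random block (Pfkfb1 and Pfkfb3 among them), and 0 on slide 2 alone, without slide 2 and without LKO mice 1 and 2. The mice of slide 2 alone allow no exact permutation p below 0.333, so no pair could pass there. Those left without slide 2 allow none below 0.0286, which leaves little room for the adjustment. The methods' t-test called 2 members and 1236 genes, of which 0 and 1 passed Benjamini-Hochberg adjustment. With limma in place of the exact test, an alternative chosen after seeing the data, 4 pairs passed. The replicate number as a block gave 3 called members, Pfkfb2 added, 1428 genes and 3 pairs (Pfkfb1 and Pfkfb3, Pfkfb2 and Pfkfb3, Pfkfb3 and Pfkfb4). The adjusted limma p was 0.113 for Pfkfb3, which was lower in the LKO mouse of all 6 numbers (-1.94 to -0.85), and 0.401 for Pdk4, which was higher in 5 of 6. Mice with the same number have adjacent animal numbers in their titles and the controls were littermates, but no source used here says that a number marks a shared litter. Deviations of mice with the same number had correlations of -0.24 to 0.32, over 0.1 in 3 of 6 pairs, and 1 sample correlated best with its own number, so whether the numbers pair the mice is not known.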
